A study of Homo sapiens with 9 samples.

Results

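The RBFOX proteins (RBFOX1, RBFOX2 and RBFOX3) are RNA-binding proteins that share an RNA recognition motif and bind the same short element in introns. As textbook background, binding downstream of an alternative exon usually favours its inclusion and binding upstream usually favours its skipping. RBFOX1 is found mainly in neurons and in skeletal and heart muscle, RBFOX3 (NeuN) in neurons, and RBFOX2 in many cell types, including epithelial cells. RBFOX genes also have alternative exons and promoters of their own, so their exons need not all change together.

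The 3 genes were followed probe set by probe set, a probe set being the small group of probes that reads 1 exon or part of an exon. Probe sets were taken as members when the platform annotation gave them exactly 1 gene symbol and that symbol, current or older, was one of the RBFOX genes. This gave 52 of the 354600 probe sets with 1 symbol. RBFOX2, on chromosome 22, had 26 probe sets under its older symbol RBM9, and RBFOX1, on chromosome 16, had 26 under A2BP1. No probe set carried RBFOX3 under any of its names, so RBFOX3 is not analysed here.

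Total RNA came from Flip-In-293 cells, made from HEK293 (human embryonic kidney) cells by adding 1 site for targeted integration, and was hybridised to exon arrays. The cells of all groups had been infected with lentivirus and kept for 10 days before RNA isolation. The virus expressed a non-silencing short hairpin RNA (control), a hairpin against CPSF3, the endonuclease of pre-mRNA 3' end cleavage, or a hairpin against RBFOX2, with 3 arrays in each group. The sample titles call the 3 arrays biological replicates and the series description calls them technical ones, so the spread behind each p-value is that between arrays and may be technical.

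Array medians lay between 6.97 and 7.00 on the log2 scale. The CPSF3 transcript itself was at 9.33, 9.29 and 9.80 on the control arrays and at 9.60, 9.27 and 9.27 on the arrays labelled CPSF3 knockdown, a difference of -0.09 ± 0.16 (log2, SE of the fit) with an adjusted p of 0.752 in limma. These groups overlapped, so the label was not borne out at the transcript level, and directions drawn from that group carry this limit. Control array 3 lay closer to the arrays of the other groups (root mean square distance 0.383) than control arrays 1 and 2 did (0.476 and 0.487). Results that turn on it are given without it. Its distance was not unusual among the 9 arrays: RBFOX2 knockdown arrays 2 and 3 were at 0.387 and 0.377. Of the cell type markers, simple epithelium genes read between 8.29 and 11.26, neuron genes between 5.56 and 10.71, muscle genes between 5.78 and 9.23, fibroblast genes between 4.38 and 9.12 and blood cell genes between 4.45 and 8.15. These ranges overlap and come from different probes, so they do not rank the cell types.

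A probe set was kept for testing when its mean over the 9 arrays reached the median of all probe sets (6.97). Of the RBFOX2 probe sets 21 of 26 were kept, and of the RBFOX1 probe sets 9 of 26. The gene level is the median over the kept probe sets of a gene on an array. Differences were tested with limma and called at a Benjamini-Hochberg adjusted p under 0.05 over all features of a comparison. Both hairpin groups were compared with the same 3 control arrays.

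RBFOX2 transcript signal was lower on every array of the RBFOX2 knockdown than on any control array. The share of all genes whose groups did not overlap was not taken, here or for the gene levels below. Its gene level was 9.66, 9.54 and 9.38 on control arrays 1 to 3 (mean 9.53 ± 0.14, SD, n = 3). It was 8.95, 8.82 and 9.05 on the RBFOX2 knockdown arrays (mean 8.94 ± 0.11, SD, n = 3). The difference of -0.58 ± 0.12 (log2, SE) corresponds to 66.7% of the control signal, with a 95% interval from 56.1% to 79.2%. The adjusted p was 0.0617, just short of the threshold, in a comparison where 0.173% of 16748 genes were called in either direction. Only 132 genes had a more negative difference and 49 a smaller p. The exact permutation test of 3 arrays against 3 gave p = 0.1, the smallest it can give.

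Whether RBFOX2 passed the test varied with the setting, while the difference stayed between -0.69 and -0.52 (log2). Without control array 3 it was -0.66 (adjusted p = 0.00424), and without control array 1 it was -0.52 (adjusted p = 0.373). With the mean over the 21 probe sets in place of the median it was -0.56 (adjusted p = 0.0255). That mean was 9.52, 9.41 and 9.53 on the control arrays and 8.95, 8.85 and 8.97 on the RBFOX2 knockdown arrays. By the median control array 3 was the lowest control, whereas by the mean it was the highest, and it was the highest control at 12 of the 21 probe sets.

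**Figure D1:**
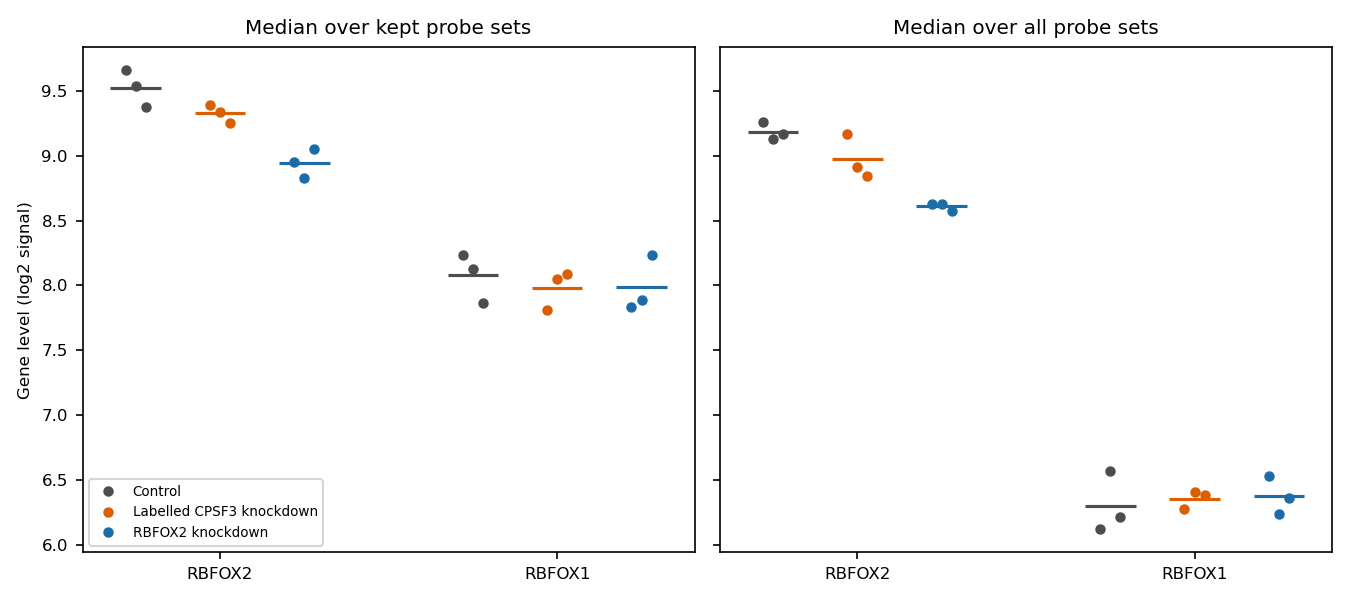
Gene level of RBFOX2 and RBFOX1 (y axis, log2 signal) on each of 9 arrays, as the median over kept probe sets (left) and over all 26 probe sets (right). Points are arrays, bars are group means. The RBFOX2 knockdown arrays lie below all control arrays for RBFOX2 in both panels and overlap them for RBFOX1.

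On the arrays labelled CPSF3 knockdown RBFOX2 lay between both other groups. Its gene level was 9.39, 9.34 and 9.25 (mean 9.33 ± 0.07, SD, n = 3), and the first of these was above control array 3. The difference from control was -0.20 ± 0.12 (log2, SE; 87.3% of control, adjusted p = 0.296), where 14.4% of all genes were called. Between the hairpin groups themselves the RBFOX2 knockdown differed by -0.39 ± 0.12 (log2, SE). That is 76.4% of the signal in the group labelled CPSF3 knockdown (95% interval 64.3% to 90.8%, adjusted p = 0.184), and these groups did not overlap. In this comparison 0.4% of all genes were called. The order of the levels was therefore control, labelled CPSF3 knockdown and RBFOX2 knockdown, of which the first pair overlapped.

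Seen exon by exon, RBFOX2 was lower in the RBFOX2 knockdown at all 21 kept probe sets. The differences from control ran from -1.09 to -0.11 with a median of -0.56 (log2), while the median over all 692116 kept probe sets was 0.01. At 15 of the 21 every knockdown array was below every control array, which held for 6.05% of all kept probe sets. At none was every knockdown array above every control array (5.11% of all). In limma 14 were lower with an unadjusted p under 0.05, as were 4.73% of all kept probe sets. None was called alone (smallest adjusted p 0.218), and only 0.000289% of all kept probe sets were called lower and 0.000144% higher.

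The largest difference was at probe set 3959238. Its signal was 9.21, 9.57 and 9.38 on the control arrays and 7.91, 8.13 and 8.86 on the RBFOX2 knockdown arrays. The difference was -1.09 ± 0.23 (log2, SE; adjusted p = 0.239), or 47.1% of control. The groups did not overlap, and the third knockdown array stood nearer to the controls than to the other knockdown arrays.

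Probe set 3959225 had the smallest adjusted p of the family. Its control arrays all read 9.75, and the RBFOX2 knockdown arrays read 8.62, 8.60 and 9.05. The difference was -0.99 ± 0.17 (log2, SE; adjusted p = 0.218), or 50.3% of control. Without control array 3 it was the 1 RBFOX2 probe set that was called in limma (adjusted p = 0.0195). In that setting 1546 of 16748 genes were called. The share of all kept probe sets called there was not taken, so the call is not read as particular to this probe set.

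The neighbouring identifier 3959224 read 10.04, 10.04 and 10.14 on the control arrays and 8.95, 8.99 and 9.55 on the knockdown arrays. The difference was -0.91 ± 0.20 (log2, SE; adjusted p = 0.239), or 53.1% of control. In all 3 of these probe sets the third knockdown array was the highest of its group.

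The probe sets at the other end had groups that overlapped. Probe set 3959274 was among the brightest of RBFOX2, at 10.22, 10.30 and 10.22 in control and 10.41, 10.00 and 10.00 in the RBFOX2 knockdown. Its difference was -0.11 ± 0.16 (log2, SE), with a 95% interval from -0.46 to 0.24.

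Probe set 3959275 read 9.51, 9.54 and 9.10 in control and 9.43, 8.85 and 9.48 in the knockdown. The difference was -0.13 ± 0.20 (95% interval -0.57 to 0.31). Probe set 3959222 read 9.98, 10.12 and 10.38 against 10.24, 9.76 and 9.92, a difference of -0.19 ± 0.17 (95% interval -0.57 to 0.19). The intervals of all 3 end short of the difference at 3959225. As these probe sets and 3959225 were picked on these same values, this is a description and no test of a difference between exons.

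**Figure D2:**
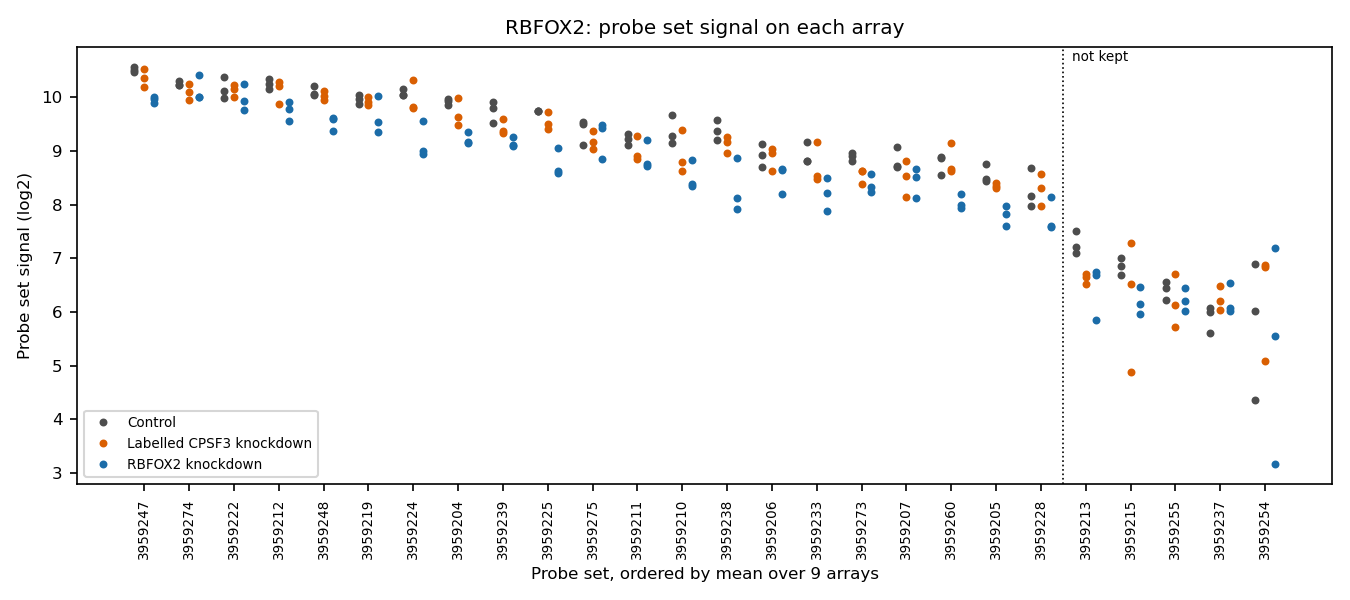
Signal (y axis, log2) of the 26 RBFOX2 probe sets on each array, ordered along the x axis by mean signal. Points are arrays coloured by group, and the dotted line sets off the 5 probe sets that were not kept. Among the 21 kept, 15 have all RBFOX2 knockdown arrays below all control arrays.

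The same was counted array by array. RBFOX2 knockdown arrays 1 to 3 lay below all control arrays at 17, 21 and 18 of the 21 probe sets, where the shares over all kept probe sets were 27.5%, 23.7% and 25.4%. Their median distances from the control mean were -0.55, -0.54 and -0.56 (log2), so the 3 arrays were close to each other in the typical depth of the drop. The within-group SD of RBFOX2 probe sets had a median of 0.17 in control and 0.26 in the RBFOX2 knockdown, against 0.21 in both groups over all kept probe sets.

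The arrays labelled CPSF3 knockdown were less alike. Arrays 1 to 3 lay below all control arrays at 6, 13 and 16 of the 21 probe sets, against 32.9%, 23.5% and 25.9% of all kept probe sets. Array 1 was the highest of this group at 14 of 21 probe sets. Its median distance from the control mean was 0.02, against -0.22 and -0.28 on arrays 2 and 3 (log2).

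As a group, these arrays had a lower mean than control at 19 of 21 RBFOX2 probe sets, with a median difference of -0.19 (log2; all kept probe sets -0.01). The groups did not overlap at 3 probe sets, all lower, where 9.66% of all kept probe sets were separated lower and 10.6% higher. These were 3959273, 3959225 and 3959205. Without array 1 the count was 12, but non-overlap is easier to reach with fewer arrays. The share over all kept probe sets was not taken there, so that count is not compared. With all arrays no RBFOX2 probe set was called in limma (smallest adjusted p 0.315). There 1 was lower with an unadjusted p under 0.05, as were 6.19% of all kept probe sets. Among all kept probe sets 0.588% were called lower and 1.01% higher.

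The most negative RBFOX2 differences in that comparison were -0.42 ± 0.23 at 3959210, -0.34 ± 0.15 at 3959273 and -0.34 ± 0.21 at 3959207 (log2, SE). Probe set 3959210 read 9.66, 9.15 and 9.27 in control and 9.39, 8.62 and 8.80 on the arrays labelled CPSF3 knockdown, which overlapped control through array 1. Probe set 3959273 read 8.95, 8.80 and 8.90 against 8.38, 8.63 and 8.62 without overlap. The least negative were 0.04 ± 0.18 at 3959260, 0.02 ± 0.23 at 3959228 and -0.03 ± 0.17 at 3959222.

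Between the hairpin groups, 19 of 21 RBFOX2 probe sets had a lower mean in the RBFOX2 knockdown, with a median difference of -0.40 (log2; all kept probe sets 0.01). At 9 the groups did not overlap and the RBFOX2 knockdown was lower, as at 6.19% of all kept probe sets, and at none was it wholly higher (5.5% of all). In limma 11 were lower with an unadjusted p under 0.05, as were 3.46% of all kept probe sets. None was called (smallest adjusted p 0.442), in a comparison that called 0% of all kept probe sets in either direction.

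The largest differences between the hairpin groups were -0.83 ± 0.23 at 3959238, -0.82 ± 0.20 at 3959224 and -0.79 ± 0.17 at 3959225 (log2, SE). The arrays labelled CPSF3 knockdown read 8.96, 9.16 and 9.25 at 3959238, above all 3 RBFOX2 knockdown arrays. The smallest were 0.06 ± 0.20 at 3959275, 0.05 ± 0.16 at 3959274 and -0.06 ± 0.21 at 3959207.

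At probe set 3959260 the hairpin groups stood on different sides of the control mean. It read 8.87, 8.56 and 8.88 in control, 9.15, 8.63 and 8.66 on the arrays labelled CPSF3 knockdown and from 7.94 to 8.20 in the RBFOX2 knockdown. The last group was below all other arrays, and the first 2 overlapped. Probe set 3959207 was the reverse case: at 8.71, 8.70 and 9.08 in control, 8.81, 8.54 and 8.14 under the CPSF3 label and 8.67, 8.52 and 8.13 in the RBFOX2 knockdown, both hairpin groups had nearly equal means.

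**Figure D3:**
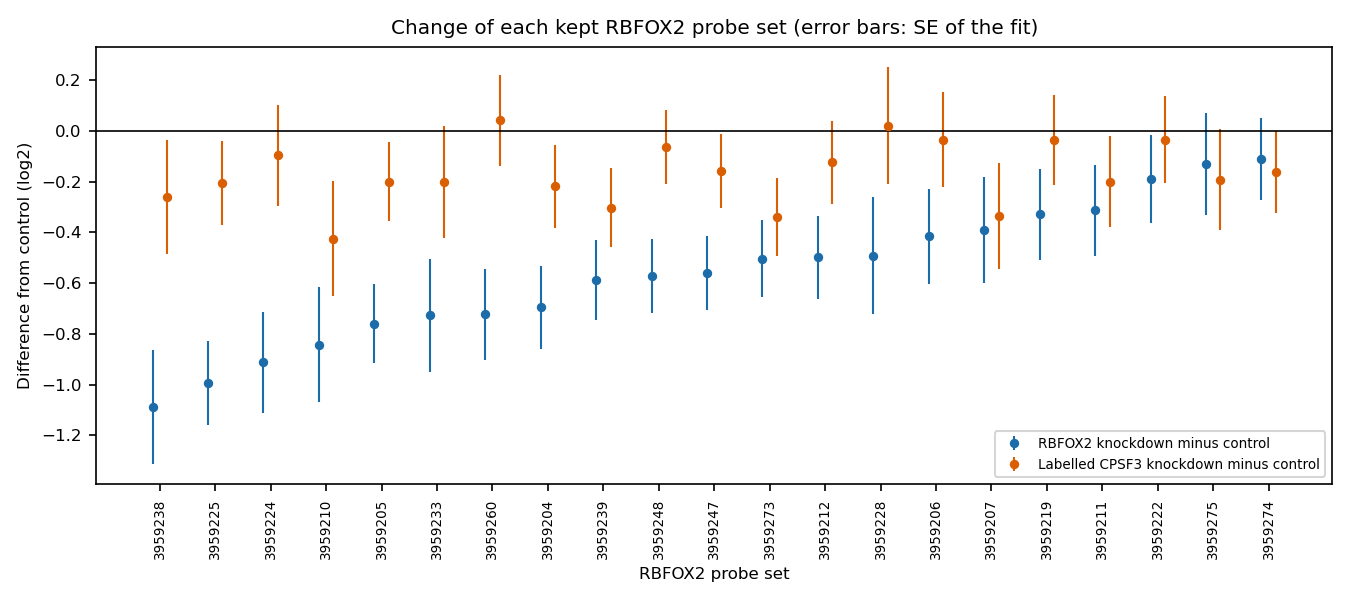
Difference from control (y axis, log2, with the SE of the fit as error bars) of the 21 kept RBFOX2 probe sets, ordered along the x axis by the difference in the RBFOX2 knockdown. The RBFOX2 knockdown runs from -1.09 to -0.11, and the group labelled CPSF3 knockdown from -0.42 to 0.04.

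The 5 RBFOX2 probe sets that were not kept had means between 5.78 and 6.78. Probe set 3959213 read 7.21, 7.50 and 7.11 in control, 6.51, 6.65 and 6.71 under the CPSF3 label and 5.84, 6.75 and 6.69 in the RBFOX2 knockdown, so both hairpin groups were below control. Probe set 3959215 read 7.00, 6.70 and 6.86 in control and 5.96, 6.47 and 6.15 in the RBFOX2 knockdown, also without overlap. Under the CPSF3 label it read 7.27, 6.53 and 4.89 and overlapped control. Probe set 3959237 went the other way, from 5.61 to 6.08 in control and from 6.02 to 6.54 in the RBFOX2 knockdown, with overlap. Probe set 3959254 was the most scattered, from 3.17 to 7.20 within the RBFOX2 knockdown. In a fit without the filter 25 of 26 RBFOX2 probe sets had a lower mean in the RBFOX2 knockdown than in control, and none was called (smallest adjusted p 0.493). The share of all probe sets without overlap was not taken without the filter.

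Exon signal, which subtracts an array's gene level from its probe set signal, asks whether an exon moved differently from the rest of its gene. No RBFOX exon signal was called in any comparison, and none of the 257548 exon signals tested was either (0% in each comparison). In the RBFOX2 knockdown against control, 4 of 21 RBFOX2 exon signals (19.0%) had an unadjusted p under 0.05 in limma, 2 in each direction, against 7.88% of all exon signals. The smallest adjusted p was 0.506.

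The exon signals that were higher belonged to the probe sets that had hardly differed, which follows from subtracting a gene level that was lower. That of 3959274 was 0.56, 0.77 and 0.85 in control and 1.47, 1.18 and 0.95 in the RBFOX2 knockdown, a difference of 0.47 ± 0.15 (log2, SE). That of 3959275 was -0.15, 0.00 and -0.27 in control and 0.48, 0.03 and 0.43 in the knockdown, a difference of 0.45 ± 0.15. Neither overlapped control, and the arrays labelled CPSF3 knockdown overlapped control at both (0.69, 0.90 and 0.69, and -0.22, 0.02 and -0.22). These exon signals and the lower ones below were picked as extremes. The share of all exon signals without overlap was not taken, so the lack of overlap is a description.

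The lower ones were -0.50 ± 0.22 at 3959238 and -0.41 ± 0.14 at 3959225 (log2, SE). The exon signal of 3959225 was 0.09, 0.21 and 0.37 in control and -0.33, -0.23 and 0.00 in the RBFOX2 knockdown, without overlap. That of 3959238 was -0.45, 0.03 and 0.00 against -1.04, -0.70 and -0.19, and here the groups overlapped.

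Between the hairpin groups the extremes were -0.44 ± 0.22 at 3959238, -0.43 ± 0.18 at 3959224, 0.44 ± 0.15 at 3959274 and 0.45 ± 0.15 at 3959275, and 4 of 21 had an unadjusted p under 0.05 in limma (all exon signals 4.24%). On the arrays labelled CPSF3 knockdown no RBFOX2 exon signal reached an unadjusted p under 0.05 against control, where 12.7% of all exon signals did. Its extremes were -0.23 ± 0.23 at 3959210, -0.14 ± 0.15 at 3959273, 0.22 ± 0.20 at 3959228 and 0.24 ± 0.18 at 3959260. The position of these probe sets along RBFOX2 transcripts, and thus which exons they read, was not used here.

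RBFOX1, the neuronal and muscle paralogue, gave low signal over most of its probe sets, and its gene level overlapped between all groups. Its 17 probe sets that were not kept had means from 3.53 to 6.89 and its 9 kept ones from 7.09 to 10.15. The median over all 26 ranged from 6.12 to 6.57 over the 9 arrays. A median over kept probe sets rests on those that read high, so it is given for the comparison of groups and not as a level of expression.

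The RBFOX1 gene level was 8.24, 8.13 and 7.87 in control, 7.81, 8.05 and 8.09 on the arrays labelled CPSF3 knockdown and 7.83, 7.89 and 8.24 in the RBFOX2 knockdown. All 3 groups overlapped. The RBFOX2 knockdown differed from control by -0.09 ± 0.14 (log2, SE; adjusted p = 0.857), with a 95% interval from 76.1% to 116% of control. The group labelled CPSF3 knockdown differed by -0.09 ± 0.14 (adjusted p = 0.729), and the hairpin groups from each other by 0.00 ± 0.14 (adjusted p = 0.997). The sign of each of these differences changed in at least 1 other setting.

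One RBFOX1 probe set stood far above the others. Probe set 3646899 read 10.10, 10.30 and 10.10 in control, 9.98, 10.11 and 10.03 under the CPSF3 label and 10.21, 10.37 and 10.14 in the RBFOX2 knockdown. The RBFOX2 knockdown was wholly above the group labelled CPSF3 knockdown by 0.20 ± 0.14 (log2, SE; adjusted p = 0.943) and overlapped control. Among the 9 kept RBFOX1 probe sets it was the only one at which the hairpin groups did not overlap. Over all kept probe sets 5.5% were separated higher and 6.19% lower in this comparison, so this count is near the share of all.

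The next brightest were 3646846 and 3646889. Probe set 3646846 read 8.93, 8.64 and 8.75 in control and 9.56, 8.81 and 8.72 in the RBFOX2 knockdown, a difference of 0.26 ± 0.28 (log2, SE). Probe set 3646889 read 8.38, 8.54 and 7.87 against 8.50, 7.98 and 8.29, a difference of -0.01 ± 0.21.

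None of the 9 kept RBFOX1 probe sets separated the RBFOX2 knockdown from control (6.05% of all kept probe sets were separated lower and 5.11% higher), and none was called in any comparison (no unadjusted p under 0.05 in limma). The smallest p in the RBFOX2 knockdown was at 3646692, at 8.43, 8.48 and 7.91 in control and 7.52, 7.82 and 8.24 in the knockdown (-0.42 ± 0.24, log2, SE; adjusted p = 0.671). Under the CPSF3 label it was at 3646847, at 8.17, 8.01 and 7.59 in control and 7.81, 7.10 and 7.54 there (-0.44 ± 0.21, adjusted p = 0.361). The same probe set had the smallest p between the hairpin groups (0.35 ± 0.21, adjusted p = 0.923). Under the CPSF3 label 3646912 was wholly below control and 3646861 wholly above it, 1 of 9 each way, near the 9.66% and 10.6% of all kept probe sets. Among the probe sets that were not kept, 3646878 read 7.05, 7.30 and 7.05 in control and 6.86, 6.61 and 6.89 in the RBFOX2 knockdown, without overlap. Probe set 3646903, also not kept, was wholly higher in the RBFOX2 knockdown (5.88, 5.93 and 6.15) than under the CPSF3 label (5.34, 5.67 and 5.59). Neither was called in the fit without the filter, for which the share of all probe sets without overlap was not taken.

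**Figure D4:**
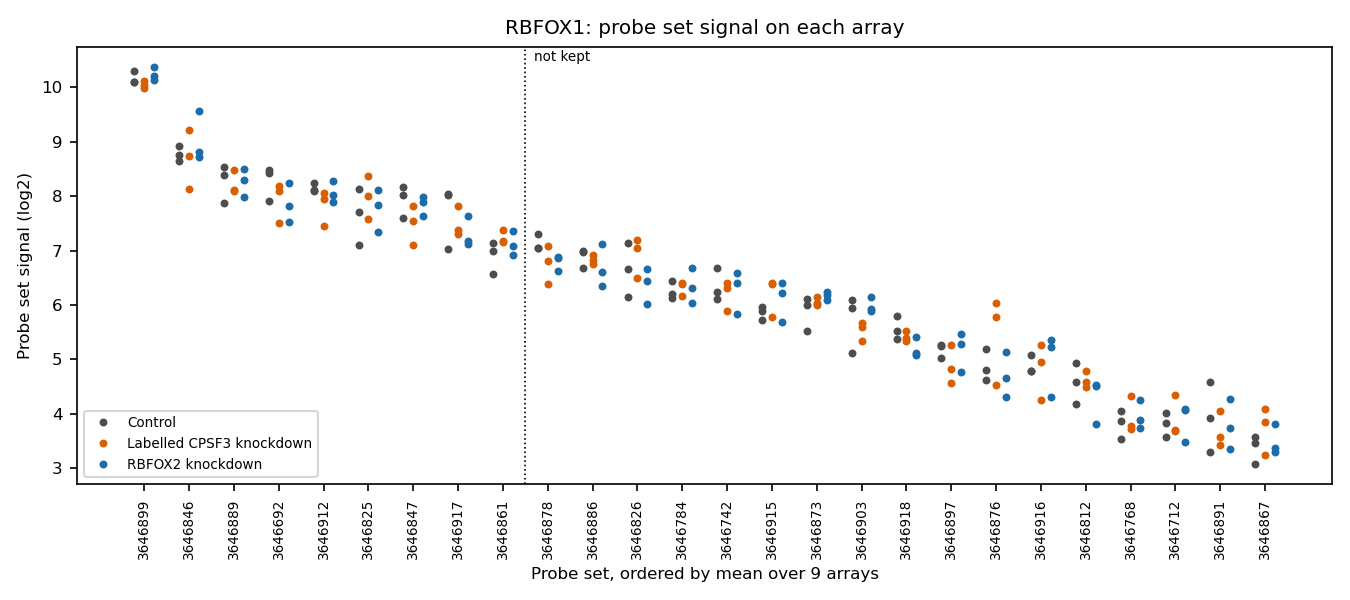
Signal (y axis, log2) of the 26 RBFOX1 probe sets on each array, ordered along the x axis by mean signal. Points are arrays coloured by group, and the dotted line sets off the 17 probe sets that were not kept. At 3646899 the RBFOX2 knockdown arrays lie above those labelled CPSF3 knockdown, and at all 9 kept probe sets they overlap control.

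Signals of the paralogues come from different probes, so the distance between them is no ratio of transcripts, but its change between groups can be compared. Over all probe sets RBFOX2 was above RBFOX1 on 9 of 9 arrays, by 2.10 to 3.14 (log2). The distance averaged 2.89 ± 0.29 in control, 2.62 ± 0.24 under the CPSF3 label and 2.23 ± 0.15 in the RBFOX2 knockdown (SD, n = 3). The RBFOX2 knockdown arrays were below all others, with p = 0.1 in the exact permutation test against either group, the smallest it can give. The group labelled CPSF3 knockdown overlapped control (exact permutation p = 0.2). Over kept probe sets the distance was 1.45 ± 0.05, 1.35 ± 0.21 and 0.96 ± 0.15 in the same order, and the RBFOX2 knockdown again did not overlap the other groups.

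The genes whose levels followed RBFOX2 most closely over the 9 arrays were named by the root mean square difference after each gene's own mean had been subtracted. They were PIGY (0.0722), a subunit of the enzyme that starts GPI anchor synthesis, SGTB (0.0802), a co-chaperone, ILKAP (0.101), a phosphatase, CEP97 (0.105), a centrosomal protein, and GMFB (0.105). The median over all genes was 0.31. Because they were chosen on these 9 arrays for following RBFOX2, their differences in the RBFOX2 knockdown against control are set by that choice and are a description: -0.48, -0.47, -0.49, -0.50 and -0.44 (log2). None of them was called there, whereas without control array 3 all 5 were (adjusted p 0.0107 to 0.0258 in limma), as were 1546 of all genes. For RBFOX1 the closest were MYO1H, PDCD5, CPN1, YBX1 and LY6G6D, with differences of 0.0681 to 0.0748 (median over all genes 0.24).

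RBFOX proteins work in a large assembly of splicing regulators, of which 7 of 8 listed genes were tested. None was called in the RBFOX2 knockdown against control (median -0.22, all genes 0.03, log2), where 0.173% of all genes were. Without control array 3, where 1546 of 16748 genes were called, 2 of the 7 were. HNRNPM, which binds GU-rich RNA and is a member of that assembly, rose on the arrays labelled CPSF3 knockdown. It read 9.55, 9.35 and 9.42 in control, 10.39, 10.40 and 10.33 there and 9.88, 9.48 and 9.93 in the RBFOX2 knockdown. Its difference from control was 0.94 ± 0.13 (log2, SE; adjusted p = 0.00146), and the groups did not overlap. This 1 of 7 is near the 14.4% of all genes called there. The other 6 were not called in that comparison. Between the hairpin groups none of the 7 was called, against 0.4% of all genes. Without control array 3 the counts called in these comparisons were 2 and 1. Leaving out 1 array at a time, 965 to 3429 and 14 to 145 genes were called over all, so these counts are no result about the assembly.

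Of 12 splicing regulators with neural expression, none was called in the RBFOX2 knockdown against control (median -0.04, log2), against 0.173% of all genes. Without control array 3 it was 1 of 12, near the share of all genes called there (1546 of 16748). Under the CPSF3 label 2 of 12 were called, near the 14.4% of all genes. PTBP2, the neuronal paralogue of the repressor PTBP1, rose under the CPSF3 label, from 10.15, 10.10 and 9.92 in control to 11.06, 11.14 and 11.26. The difference was 1.10 ± 0.13 (log2, SE; adjusted p = 0.000644). In the RBFOX2 knockdown PTBP2 was at 9.66, 9.67 and 10.04, a difference of -1.37 ± 0.13 from the group labelled CPSF3 knockdown (adjusted p = 0.000442). KHDRBS3, a STAR family regulator, fell by 0.41 ± 0.12 under the CPSF3 label (adjusted p = 0.030 in limma). That call was lost in 6 of 18 other settings, among them without control array 1 (adjusted p = 0.125). It was also lost without array 2 or 3 labelled CPSF3 knockdown (adjusted p = 0.0797 and 0.120). In the RBFOX2 knockdown KHDRBS3 was below all control arrays as well (-0.31 ± 0.12) and was not called (adjusted p = 0.250). The hairpin groups differed at KHDRBS3 by 0.10 ± 0.12 (adjusted p = 0.770).

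Markers of the cell types in which RBFOX1 and RBFOX3 are best known were read beside these values. None of 12 neuron or 10 muscle markers was called in the RBFOX2 knockdown against control, where 0.173% of all genes were. Under the CPSF3 label 2 neuron markers (NEFL and STMN2), 1 muscle marker (MB) and 2 of 4 epithelium markers (KRT8 and CDH1) were called lower, and no fibroblast or blood cell marker was called. In this comparison 14.4% of all genes were called in either direction, and the neuron and muscle counts (2 of 12 and 1 of 10) are near that share. The call of NEFL held in all 18 other settings, while those of STMN2, MB, KRT8 and CDH1 were lost in 5, 7, 2 and 7, among them without control array 1 and without array 1 labelled CPSF3 knockdown. In the RBFOX2 knockdown NEFL, STMN2, MB, KRT8 and CDH1 differed from control by -0.48, -0.31, -0.21, -0.49 and 0.01 (log2). None of these was called there and CDH1 was not lower, so whether lower values were confined to the CPSF3 label was not settled. The mean level of the neuron markers was 7.82 to 7.85 in control, 7.61 to 7.65 under the CPSF3 label and 7.67 to 7.85 in the RBFOX2 knockdown. That of the epithelium markers was 10.04 to 10.19, 9.71 to 9.91 and 9.83 to 9.97 in the same order. The part of these shifts in the RBFOX values was not tested.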

How the data were processed

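The deposited files hold 1 log2 signal per probe set and array, for 1384231 probe sets on 9 arrays. The authors made them with RMA in Affymetrix Power Tools on build hg18, per the submitters' processing notes, without versions. RMA brings all arrays to 1 distribution and compresses differences between weak signals. The number of arrays limits the precision.

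Older symbols were updated through RefSeq, and probe sets with several symbols were not used (none named an RBFOX gene). The analyses used R 4.3.3, limma 3.58.1, version 1.17.8 of the data.table package, Python 3.11.15 and matplotlib 3.10.9. Kept probe sets (692116) had a mean of at least 6.97. Gene levels needed 3 kept probe sets (16748 genes), exon signals 5 (257548 signals in 15035 genes). Each was fitted with lmFit and eBayes over 3 groups without a block, 2-sided, with Benjamini-Hochberg adjustment at 0.05 over all features. Fits were tested on simulated data. No array was left out, and no 2 arrays were identical.

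The members, gene lists and tests were chosen with earlier results of these data known. Named RBFOX2 probe sets were the 3 most and 3 least negative per comparison, those of RBFOX1 the 3 brightest and the smallest p per comparison, and exon signals the 2 extremes each way. Other probe sets (3959260, 3959207 across groups, those not kept, and those without overlap) were named after their values were seen. The 5 nearest genes and called list members (at most 2 each way) completed the rule. Alternatives were filters, normalisations, array weights, a replicate block, a variance trend, the compared groups only, the mean as gene level and leaving out each array. A run without exon signals that are 0 on all arrays was added after the data were seen.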

Additional observations from a re-analysis of the deposited data

How the results depend on the processing

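The lower RBFOX2 gene level in the RBFOX2 knockdown kept its direction in all 18 other settings (-0.69 to -0.52, log2). It passed the threshold with a filter at the upper quartile (-0.67, adjusted p = 0.0247), the replicate block (-0.58, adjusted p = 0.0451), array weights (-0.69, adjusted p = 0.00242) and the mean as gene level (-0.56, adjusted p = 0.0255). Leaving out 1 array gave -0.66 to -0.52 (adjusted p 0.00424 to 0.373), and the called RBFOX2 probe sets were 0 to 1. With array weights RBFOX2 also passed under the CPSF3 label (-0.28, adjusted p = 0.0356) and between the hairpin groups (-0.40, adjusted p = 0.0377). The cause was not tested. RBFOX exon signals called stayed at 0 in all settings.

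Genes called over all were 29 in the RBFOX2 knockdown but 1546 without control array 3, 1513 with array weights, 137 with the replicate block and 2 without control array 1. Under the CPSF3 label they were 2409 (965 to 4817), and between the hairpin groups 67 (14 to 601). Whether the replicate numbers pair the arrays was not settled. Same-numbered arrays correlated at -0.155 to 0.310 in their deviations, over 0.1 in 3 of 9 pairs. Arrays of different groups and numbers correlated at -0.410 to 0.308, over 0.1 in 6 of 18 pairs. Of the 9 arrays, 5 correlated best with their own number. The replicate block changed no call of an RBFOX2 or RBFOX1 value other than the one above.

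Differences near 0 changed sign. Without a filter RBFOX1 was at 0.0765 in the RBFOX2 knockdown and 0.0548 under the CPSF3 label. Between the hairpin groups it was -0.00073 with centred arrays, -0.0579 with array weights and -0.12 to 0.0780 leaving out 1 array. With array weights the differences under the CPSF3 label were 0.0064 at 3959222, -0.15 at 3959228 and -0.0696 at 3959260. Those between the hairpin groups were 0.0173 at 3959207, -0.0085 at 3959274, -0.0429 at 3959275 and -0.0950 at 3646889.

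Leaving out 1 array gave these ranges. In the RBFOX2 knockdown they were -0.27 to 0.0701 at 3959275, -0.0079 to 0.41 at 3646846 and -0.20 to 0.14 at 3646889. Under the CPSF3 label they were -0.12 to 0.0754 at 3959222, -0.13 to 0.23 at 3959228, -0.13 to 0.13 at 3959260, -0.34 to 0.20 at 3646846 and -0.23 to 0.10 at 3646889. Between the hairpin groups they were -0.23 to 0.10 at 3959207, -0.0844 to 0.13 at 3959274, -0.0487 to 0.26 at 3959275 and -0.0940 to 0.17 at 3646889. Weak signal limits most RBFOX1 probe sets, 17 of 26 of which lay under the median of all probe sets.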
